A study of Mus musculus with 6 samples.

Results

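The target genes of the transcriptional co-activators Yap and Taz were followed here through mouse mammary glands grown from wild-type or Adamts18-null epithelium. The members were a list of 10 genes commonly used to read out Yap/Taz activity, namely Ctgf, Cyr61, Ankrd1, Amotl2, Axl, Crim1, Ptpn14, F3, Nt5e and Arhgef17. They were chosen by name and not by their level, though with earlier results of these data known. Each was found among the 34590 gene symbols of the count table. All 10 also passed the filter on low counts, which left 17345 genes to test.

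RNA was sequenced from 6 mammary glands of 3 wild-type host mice whose inguinal fat pads had been cleared of their own epithelium. In each host the left gland was reconstituted with WT.EGFP+ mammary epithelium and the right gland with Adamts18-/-.EGFP+ epithelium, all on a C57BL/6JOlaHsd background. Both kinds of graft carried EGFP from an actin-promoter transgene, and the null allele lacks the exons that encode the catalytic zinc-binding site of Adamts18, a secreted metalloprotease. Genotype cannot be told apart from the side of the body. The host keeps its own stroma, so wild-type fibroblasts, adipocytes and vessels surrounded the epithelium in both groups. The 3 pairs came from 3 experiments with different donors, and host, donor and day of the experiment cannot be told apart within a mouse. Hosts of such grafts were females operated on at 3 weeks of age, and their age when RNA was taken was not given in the sources used here.

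Yap and Taz do not bind DNA themselves. They enter the nucleus when the Hippo kinases Mst and Lats are inactive, for example on a stiff matrix or in spread cells, and there they bind Tead factors and switch on genes such as Ctgf and Cyr61. In the mammary gland Yap and Taz are known for their part in basal and progenitor cells, and the pathway is also active in fibroblasts, endothelium and fat. Several targets, among them Amotl2 and Ptpn14, feed back by holding Yap out of the nucleus.

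Library totals lay between 54059023 and 71595924 counts in the WT glands and between 53875123 and 63307129 in the Adamts18-/- glands. Adamts18 itself had 252 counts in WT against 144 in Adamts18-/- for mouse 1, 608 against 295 for mouse 2 and 383 against 202 for mouse 3, lower in 3 of 3 pairs. According to the labels the RNA came from mammary epithelial cells sorted for GFP, and the marker genes went against this. Adipoq, an adipocyte hormone, stood at 525 to 1622 CPM (counts per 1000000 counts of a library, after scaling by the trimmed mean of M values) and Col1a1, a fibroblast collagen, at 1084 to 1435. Epcam, which marks epithelium, stood at 83.4 to 180.0 CPM. The libraries are therefore called glands here, and a member's level is a level in the mixture of cells. In such a mixture, fewer cells of a type and less RNA per cell cannot be told apart.

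Tead factors recognise the letters CATTCC, and the windows around this core are shown first because it is the DNA element through which Yap and Taz reach their targets. The RefSeq table used here gave the 250 bases before a RefSeq start of transcription (build GRCm38.p6) for 8 of the 10 members. For Amotl2, Ankrd1 and Nt5e these bases lie inside the gene span given below, downstream of its outermost start. The windows of Ctgf and Arhgef17 were not analysed here. CATTCC was present on either strand in 6 of the 8, namely Cyr61, Ankrd1, Amotl2, Axl, Crim1 and Ptpn14. Of all 32851 promoters of the same length, 4153 (12.6%) held it. Ankrd1 held 2 copies, and 1.02% of all promoters held at least 2. The letters were not in these windows of F3 and Nt5e. Each 30-base window below is written 5′ to 3′ on the strand that carries CATTCC, which is in capitals.
Cyr61, chr3:145650071-145650100, minus strand: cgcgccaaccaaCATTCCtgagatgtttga
Ankrd1, distal copy, chr19:36120037-36120066, plus strand: atgtgagagggtCATTCCtttggcagtgac
Ankrd1, proximal copy, chr19:36119950-36119979, plus strand: caggtgaattttCATTCCagacttagtgtc
Amotl2, chr9:102717727-102717756, plus strand: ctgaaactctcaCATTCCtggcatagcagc
Axl, chr7:25788949-25788978, plus strand: gggtctggtaaaCATTCCtgtagaatttcc
Crim1, chr17:78200157-78200186, minus strand: cccatcctacctCATTCCcccccccgccct
Ptpn14, chr1:189728110-189728139, plus strand: cctccccggacgCATTCCtggcccgcccag

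The core lay on the strand of the gene in Cyr61, Amotl2 and Ptpn14 and on the opposite strand in Ankrd1, Axl and Crim1. Its distance from that RefSeq start ran from 65 bases in Amotl2 to 233 bases in Axl, with 103 bases in Cyr61. In Cyr61, Amotl2, Axl and Ptpn14 the core was followed by TG, a shared feature seen after the windows were read, and CATTCCTG occurred in 449 of all promoters (1.37%). A match is a description of the letters and not a bound site.

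Across the glands the members fell into a wide order of abundance. Per kilobase of exon, Axl was the most abundant in the WT glands at 107 ± 18.5 CPM per kb (SD, n = 3), followed by Ctgf at 61.0 ± 28.9 and Cyr61 at 41.4 ± 22.7. Amotl2 stood at 27.3 ± 5.70 CPM per kb and Crim1 at 14.1 ± 3.65. Ptpn14 was at 8.93 ± 2.07, F3 at 8.08 ± 1.69 and Arhgef17 at 7.68 ± 1.35 CPM per kb. Nt5e followed at 3.52 ± 0.404 CPM per kb, and Ankrd1 was the lowest at 0.574 ± 0.295. The glands of neighbours in this order overlapped, except between Amotl2 and Crim1, between Arhgef17 and Nt5e and between Nt5e and Ankrd1. In the Adamts18-/- glands Cyr61, at 69.1 ± 49.3 CPM per kb, had the larger mean and Ctgf, at 45.3 ± 23.4, the smaller, again within their spread.

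The comparison of the Adamts18-/- gland with the WT gland of the same mouse asks whether loss of the protease from the epithelium shifts the readout of Yap and Taz. Ctgf was lower in the Adamts18-/- gland, at 0.728 of the WT level, and was the only member past both thresholds of the call (fold change below 0.8 or above its reciprocal, unadjusted p below 0.05). Ptpn14 and Arhgef17 passed the p threshold at smaller differences. Cyr61 and Ankrd1 had higher fitted levels that did not pass. Among all tested genes 1.84% were called lower and 1.17% higher. No gene of the 17345 passed a Benjamini-Hochberg adjusted p of 0.05 in the quasi-likelihood test of edgeR, with 670 below an unadjusted p of 0.05 and a smallest adjusted p of 0.771. Each member had an adjusted p of 0.987 in that test.

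**Figure D1:**
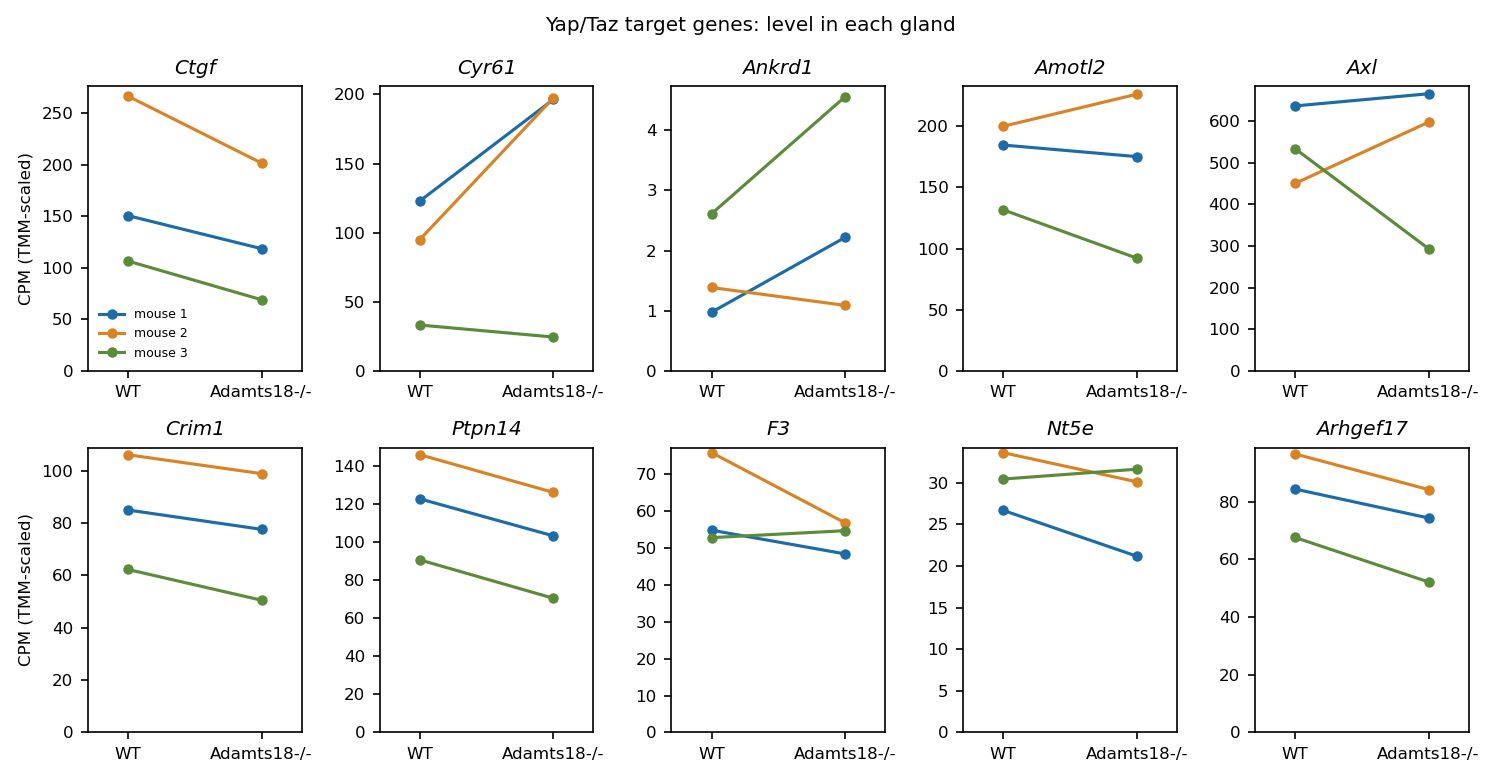
Level of each of the 10 Yap/Taz target genes in each gland, in CPM on an axis that starts at 0, with the WT and Adamts18-/- glands of a mouse joined by a line. The lines of Ctgf, Crim1, Ptpn14 and Arhgef17 slope down in all 3 mice, while those of Cyr61, Axl and Amotl2 rise in mouse 2 and fall in mouse 3.

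Ctgf and Cyr61 encode related secreted matricellular proteins of the CCN family, which bind integrins and growth factors, and both are classical direct targets. Ctgf (also Ccn2; GRCm38, chr10:24595442-24598683, plus strand) was at 151, 266 and 107 CPM in WT and at 118, 202 and 69.0 CPM in Adamts18-/- glands, in the order of mice 1, 2 and 3. Within every mouse the Adamts18-/- gland was the lower, but the groups overlapped, and the Adamts18-/- gland of mouse 2 stood above the WT glands of mice 1 and 3. In the fit, the log2 fold change was -0.46 (SE 0.088, 95% interval -0.69 to -0.23; edgeR unadjusted p = 0.00420), with log2 ratios of -0.35, -0.40 and -0.63 in the 3 mice. The counts were also scaled so that the summed counts of 24 pan-epithelial markers were level between glands, below called holding the epithelial markers level. The Ctgf difference was then -0.0062 (edgeR unadjusted p = 0.984). Single markers still differed, with 19 of the 24 at fitted values above 0 and a median of 0.075. That scaling moves all genes alike, with their median at 0.45. Relative to that median Ctgf stood at -0.46. Without the mouse as a block, in the main scaling, the Ctgf difference was -0.43 (edgeR unadjusted p = 0.415). In DESeq2 its adjusted p was 0.0198, and over all 12 alternatives the adjusted p ran from 0.0198 to 0.99997. An antisense transcript, Gm15270, shares 665 exon bases with Ctgf and had 14 to 49 counts, against 4240 to 16331 for Ctgf. Whether reads over the shared bases entered the Ctgf count was not tested, and the strand setting of the counting was not given.

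Cyr61 (also Ccn1; chr3:145646976-145649981, minus strand) did not share the pattern of Ctgf. It was at 123, 94.96 and 33.2 CPM in the WT glands and at 196, 197 and 24.5 CPM in the Adamts18-/- glands of mice 1, 2 and 3. The Adamts18-/- gland was the higher in mice 1 and 2 and the lower in mouse 3, whose glands both stood below all others. The log2 ratios within mice were 0.68, 1.06 and -0.44. Its fitted log2 fold change was 0.44 (SE 0.30, 95% interval -0.35 to 1.24; edgeR unadjusted p = 0.208). With mouse 3 left out it was 0.87 (edgeR unadjusted p = 6.35e-04; adjusted p = 0.0434 over all genes). It was 0.12 (edgeR unadjusted p = 0.711) without mouse 2 and 0.31 (edgeR unadjusted p = 0.467) without mouse 1. With the epithelial markers held level it was 0.88 (edgeR unadjusted p = 0.00612, adjusted p = 0.138). That scaling put the median of all genes at 0.45, and relative to this median Cyr61 stood at 0.43.

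Ankrd1, a nuclear ankyrin-repeat cofactor that is also known from striated muscle, was scarce in these glands (chr19:36111961-36120099, minus strand). It had 68, 85 and 147 counts in the WT glands and 116, 66 and 280 in the Adamts18-/- glands of mice 1, 2 and 3, or 0.9749, 1.39 and 2.61 against 2.22, 1.09 and 4.56 CPM. It was higher in the Adamts18-/- gland of mice 1 and 3 and lower in that of mouse 2. The fitted log2 fold change was 0.56 (SE 0.35, 95% interval -0.34 to 1.47; edgeR unadjusted p = 0.169). It was 0.25 (edgeR unadjusted p = 0.568) without mouse 1, 0.99 (edgeR unadjusted p = 0.0199) without mouse 2 and 0.44 (edgeR unadjusted p = 0.341) without mouse 3. With the epithelial markers held level it was 1.01 (edgeR unadjusted p = 0.00483). That scaling put the median of all genes at 0.45, and relative to this median Ankrd1 stood at 0.56.

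Amotl2 and Ptpn14 encode the feedback arm, an angiomotin-like scaffold and a protein tyrosine phosphatase that both retain Yap in the cytoplasm. Ptpn14 (chr1:189728268-189876695, plus strand) was at 123, 146 and 90.7 CPM in the WT glands and at 103, 126 and 70.5 CPM in the Adamts18-/- glands. It was lower in the Adamts18-/- gland of each mouse by log2 ratios of -0.25, -0.21 and -0.36, and the groups overlapped. The log2 fold change of -0.27 (SE 0.069; edgeR unadjusted p = 0.0123) equals a fold of 0.827, short of the fold threshold, and turned to 0.18 (edgeR unadjusted p = 0.564) with the epithelial markers held level. The median of all genes was at 0.45 in that scaling, and relative to it Ptpn14 stood at -0.27. An antisense gene, Gm26574, shares 177 exon bases with Ptpn14, and whether its reads entered the count was not tested.

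Amotl2 (chr9:102716672-102733418, plus strand) was at 185, 199.9 and 132 CPM in the WT glands and at 175, 226 and 92.2 CPM in the Adamts18-/- glands. Its ratio was below 0 in mouse 1, above 0 in mouse 2 and below 0 in mouse 3. Its fitted log2 fold change was -0.14 (SE 0.15; edgeR unadjusted p = 0.406), with a 95% interval from -0.53 to 0.26. It was 0.059 (edgeR unadjusted p = 0.593) without mouse 3.

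Axl, Crim1, F3 and Nt5e encode membrane proteins: a receptor tyrosine kinase for Gas6, a transmembrane protein that binds growth factors of the BMP family, tissue factor, which starts coagulation, and the ectonucleotidase CD73, which makes adenosine. Crim1 (chr17:78200248-78376592, plus strand) was at 84.9, 106 and 62.2 CPM in the WT glands and at 77.6, 98.8 and 50.5 CPM in the Adamts18-/- glands. The ratio was below 0 in each mouse, at -0.13, -0.10 and -0.30 on the log2 scale. The fitted log2 fold change was -0.18 (SE 0.073; edgeR unadjusted p = 0.0633) and turned to 0.27 (edgeR unadjusted p = 0.365) with the epithelial markers held level. The median of all genes was at 0.45 in that scaling, and relative to it Crim1 stood at -0.18. Crim1 shares 123 exon bases with Fez2 on the other strand, which had 2346 to 3836 counts. The strand setting of the counting was not given in the sources used here.

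Axl (chr7:25757273-25788705, minus strand), the most abundant member, was at 636, 450.2 and 534 CPM in the WT glands and at 666, 597 and 294 CPM in the Adamts18-/- glands. The log2 ratios of 0.065, 0.41 and -0.86 had no common direction, and the Adamts18-/- gland of mouse 3 was the lowest of all. In the fit, the log2 fold change was -0.13 (SE 0.27, 95% interval -0.83 to 0.58; edgeR unadjusted p = 0.657), and 0.24 (edgeR unadjusted p = 0.139) without mouse 3.

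F3 (chr3:121723537-121735048, plus strand) was at 54.8, 75.9 and 52.8 CPM in the WT glands and at 48.4, 56.8 and 54.7 CPM in the Adamts18-/- glands. Nt5e (chr9:88327197-88372092, plus strand) was at 26.7, 33.6 and 30.5 CPM in the WT glands and at 21.2, 30.1 and 31.6 CPM in the Adamts18-/- glands. For both genes the Adamts18-/- gland was the lower in mice 1 and 2 and slightly the higher in mouse 3. Its fitted log2 fold change was -0.18 (SE 0.11; edgeR unadjusted p = 0.159) for F3 and -0.15 (SE 0.10; edgeR unadjusted p = 0.216) for Nt5e. Without mouse 3 it was -0.29 (edgeR unadjusted p = 0.0209) for F3 and -0.24 (edgeR unadjusted p = 0.0428) for Nt5e. F3 was at -0.065 without mouse 2, and Nt5e at -0.053 without mouse 1.

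Arhgef17 encodes a guanine nucleotide exchange factor for RhoA, the GTPase that builds actin stress fibres. The gene (chr7:100869752-100932107, minus strand) was at 84.4, 96.6 and 67.7 CPM in the WT glands and at 74.4, 84.3 and 52.2 CPM in the Adamts18-/- glands. It was lower in the Adamts18-/- gland of each mouse, with log2 ratios of -0.18, -0.20 and -0.37 and overlapping groups. The fitted log2 fold change of -0.25 (SE 0.073, edgeR unadjusted p = 0.0206) equals a fold of 0.840. It turned to 0.20 (edgeR unadjusted p = 0.506) with the epithelial markers held level. The median of all genes was at 0.45 in that scaling, and relative to it Arhgef17 stood at -0.25.

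**Figure D2:**
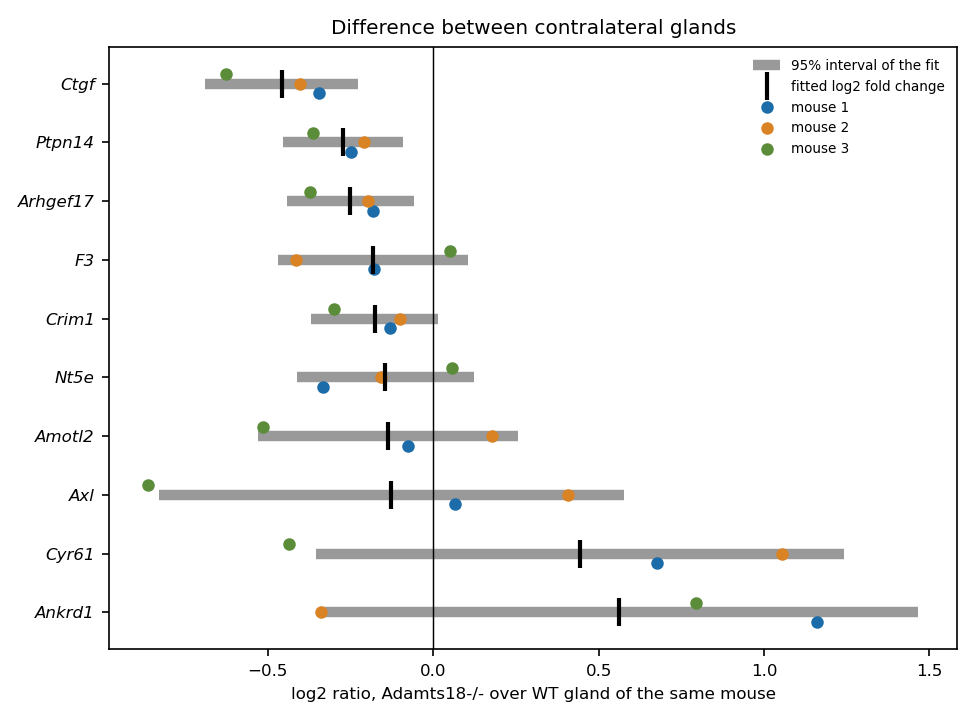
Difference between the contralateral glands for each member, as log2 ratios of Adamts18-/- over WT, with 1 point per mouse, a black tick at the fitted log2 fold change and a grey bar for its 95% interval. The intervals of Ctgf, Ptpn14 and Arhgef17 lie below 0 in this scaling, while those of the other 7 members include 0. With the epithelial markers held level the fitted value of Ctgf is -0.0062 and those of Ptpn14 and Arhgef17 are above 0. That scaling puts the median of all genes at 0.45.

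Counted as a list, 8 of the 10 members had a negative fitted log2 fold change and 2 a positive one, with 7 of the 8 turning positive when the epithelial markers were held level. The median was -0.16, beside 0.00065 over all tested genes, whose quartiles lay at -0.096 and 0.099. Ctgf, Crim1, Ptpn14 and Arhgef17 (4 of 10) were lower in the Adamts18-/- gland of all 3 mice, as were 12.7% of all tested genes, and each but Ctgf had a positive fitted value with the epithelial markers held level. None was higher in all 3, as were 10.8% of all genes. The groups overlapped in CPM for each of the 10 members. Among all genes 2.63% were lower and 2.31% higher in the Adamts18-/- glands without overlap. Holding the epithelial markers level moved the median of all genes to 0.45, with 0.184% of them then called lower and 14.9% higher. Relative to that shift, Ctgf stood at -0.46, Ptpn14 at -0.27, Arhgef17 at -0.25, Crim1 at -0.18, Cyr61 at 0.43 and Ankrd1 at 0.56.

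The members also differed between mice. The summed CPM of the 10 members was 1469 in WT and 1483 in Adamts18-/- for mouse 1, 1471 and 1619.6 for mouse 2, and 1112 and 743 for mouse 3. Averaged over both glands, 7 members were lower in mouse 3 than in either other mouse, all but Ankrd1, Nt5e and F3. So were all 8 adipocyte markers, all 8 endothelial markers and 11 of 14 Hippo kinases and upstream regulators, but 0 of 24 pan-epithelial markers. The share of all genes was not computed. The log2 difference of mouse 3 from the mean of the others was -2.35 for Cyr61, -1.04 for Ctgf, -0.83 for Amotl2 and -0.70 for Crim1, against 1.34 for Ankrd1. Over all tested genes its quartiles lay at -0.26 and 0.28. Ctgf was the only member past an adjusted p of 0.05 in the edgeR test of the mice (adjusted p = 0.0476), as were 0.628% of all genes. Crim1 (adjusted p = 0.0575), Ptpn14 (0.0577), Arhgef17 (0.0728) and Cyr61 (0.0747) followed. The count was 6 in DESeq2, 4 without the filter on low counts and 4 with the epithelial markers held level, and no member passed when any mouse was left out.

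Other marker genes moved with the mice. Against mice 1 and 2, mouse 3 had lower summed levels of the 8 adipocyte markers, at 10024 and 7782 CPM in its WT and Adamts18-/- glands against 16117 to 19228 in the other 4 glands. The 8 endothelial markers summed to 660.2 and 565 CPM in mouse 3 and to 789 to 999 in the others. The 4 B cell markers summed to 114 and 519 CPM in mouse 3 and to 8.07 to 13.1 in the others, and the 4 T cell markers to 70.8 and 184 against 11.2 to 28.0. Their part in the lower targets of mouse 3 was not tested.

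**Figure D3:**
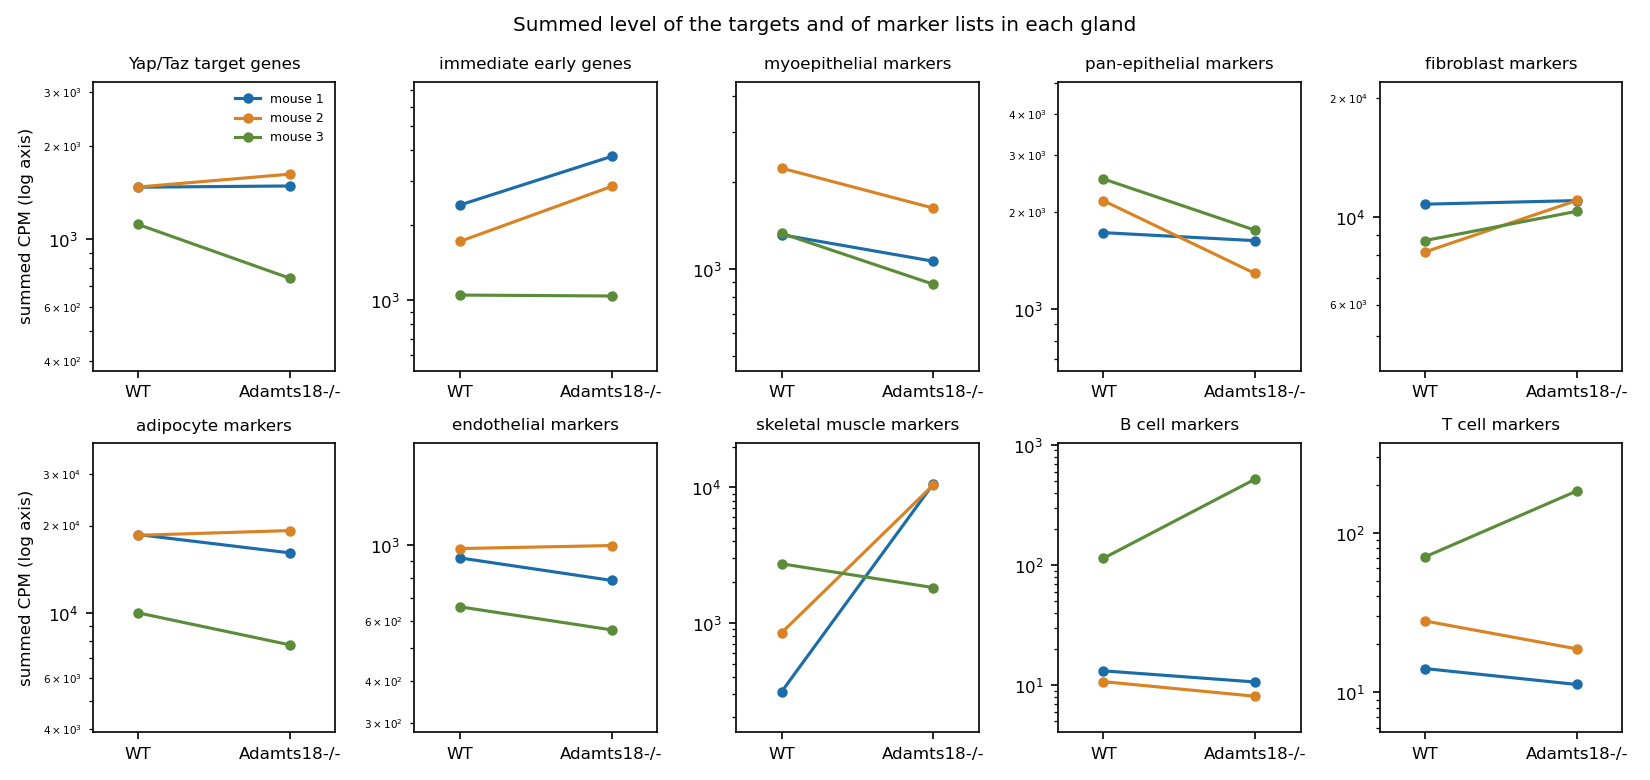
Summed CPM (log axis) of the 10 Yap/Taz target genes and of 9 other gene lists in each gland, with the WT and Adamts18-/- glands of a mouse joined by a line. Immediate early genes rise in mice 1 and 2 and stay level in mouse 3, myoepithelial markers slope down in all 3 mice, and skeletal muscle markers are highest in the Adamts18-/- glands of mice 1 and 2.

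Marker lists were set beside Ctgf and Cyr61 within mice. All 10 myoepithelial markers, among them smooth muscle actin Acta2, had negative fitted values and 9 were called lower, with a median of -0.49. Their sum ranged from 1316 to 2241 CPM in WT and from 886 to 1628 in Adamts18-/- glands, with log2 ratios of -0.31, -0.46 and -0.59 in mice 1, 2 and 3, beside -0.35, -0.40 and -0.63 for Ctgf. Acta2, at 245 CPM or more in every gland, was far from 0. The 24 pan-epithelial markers all had negative fitted values, with 7 called lower. Their sum ranged from 1724 to 2527 CPM in WT and from 1289 to 1754 in Adamts18-/- glands. Its log2 ratios were -0.082, -0.75 and -0.53. In mouse 1, however, 16 of the 24 single ratios were above 0, with a median of 0.070. Only 8 of the 24 were lower in all 3 mice. Holding the sum of the pan-epithelial list level between glands brought the Ctgf difference to -0.0062. It left 5 of the 10 myoepithelial markers below 0 with none called. The median of all genes was then at 0.45, and relative to it Ctgf stood at -0.46. Of the 6 hormone-sensing luminal markers 3 were called lower, with ratios of their sum of -0.11, -0.14 and -0.59, and of 7 secretory luminal markers 1 was, with a median of -0.46; with the epithelial markers level these lists had medians of 0.091 and -0.0068.

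The 18 immediate early genes, which are induced within minutes of a stimulus, were mostly higher in the Adamts18-/- glands of mice 1 and 2, 17 of 18 in each, as was Cyr61. Of these, 17 had positive fitted values and 8 were called higher, among them Fos (log2 fold change 1.04, edgeR unadjusted p = 0.0131) and Egr1 (0.60, edgeR unadjusted p = 0.00820). Their sum ranged from 1048 to 2412 CPM in WT and from 1039 to 3781 in Adamts18-/- glands, with log2 ratios of 0.65, 0.73 and -0.013, beside 0.68, 1.06 and -0.44 for Cyr61. In mouse 3, 16 of the 18 were lower than in either other mouse, all but Egr3 and Myc. The part of these lists in the values of Ctgf and Cyr61 was not tested, since the scaling moves all genes alike.

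The 9 skeletal muscle markers summed to 310.2, 844 and 2727 CPM in the WT glands and to 10636, 10446 and 1819 CPM in the Adamts18-/- glands of mice 1, 2 and 3. Ckm, muscle creatine kinase, went from 30.3 CPM in WT to 1267 in Adamts18-/- in mouse 1, where Ankrd1 went from 0.9749 to 2.22 CPM. It was at 1227 CPM in the Adamts18-/- gland of mouse 2, where Ankrd1 stood at 1.09 CPM. It was at 226 CPM in that of mouse 3, where Ankrd1 reached its highest level of 4.56. The part of muscle in the Ankrd1 values was not tested. The 7 fibroblast markers summed to 8153 to 10771 CPM in WT and to 10333 to 11007 in Adamts18-/- glands, and none was called.

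Across the 6 glands, which come from 3 mice and are not independent, some members moved almost as 1 pattern. Pearson's r of log2 CPM was 0.995 between Ptpn14 and Arhgef17, 0.986 between Crim1 and Ptpn14, 0.976 between Ctgf and Ptpn14 and 0.974 between Ctgf and Crim1. Amotl2 and Cyr61 had an r of 0.896. Ankrd1 ran against most of the list, with an r of -0.917 to Amotl2, -0.910 to Ptpn14 and -0.763 to Cyr61. These values are descriptions, since all genes share the libraries and the difference between mice.

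**Figure D4:**
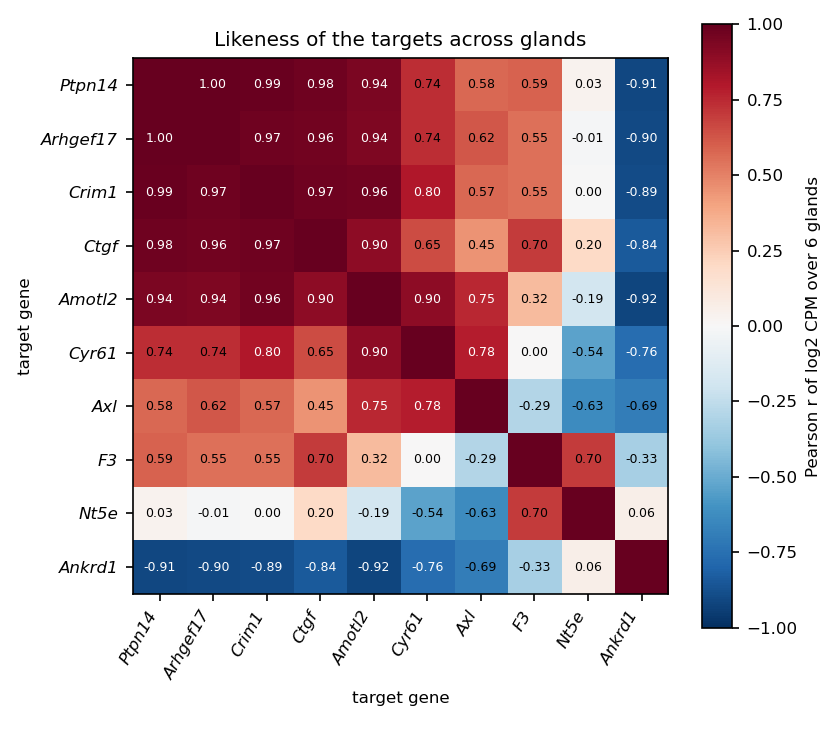
Pearson's r of log2 CPM over the 6 glands for each pair of the 10 members, from -1 (blue) to 1 (red). Ctgf, Crim1, Ptpn14 and Arhgef17 form a block near 1, with 0.995 between Ptpn14 and Arhgef17, and the row of Ankrd1 is mostly negative.

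Among 10714 tested genes with a mean of at least 10 CPM, those most like Ctgf over the 6 glands were Cxcl14 (r = 0.996), Lrp5 (0.995) and Pkp4 (0.994). Among those most like Cyr61 were Grsf1 and Zbtb41, each with an r of 0.996. Those most like Ankrd1 were 4933421E11Rik (0.992), Cnot6l (0.991) and Gpr155 (0.988).

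The mRNAs of the proteins that carry the signal were counted alongside the targets, and no protein was measured in these libraries. The co-activators Yap1 and Wwtr1, the gene for Taz, had fitted log2 fold changes of -0.21 (SE 0.11; edgeR unadjusted p = 0.102) and -0.15 (SE 0.11; edgeR unadjusted p = 0.257). Of the 6 genes for Yap, Taz and the Tead factors, Tead2 alone was called lower (-0.51, SE 0.094; edgeR unadjusted p = 0.00355), and Tead3 passed the p threshold short of the fold threshold (-0.31; edgeR unadjusted p = 0.0221). The list had a median of -0.22. Of 14 Hippo kinases and upstream regulators, Wwc1, a scaffold that activates Lats kinases, was the only one called, lower at -0.55 (SE 0.18; edgeR unadjusted p = 0.0316), and the median was -0.0070. With the epithelial markers held level, Yap1 was at 0.24, Wwtr1 at 0.30, Tead2 at -0.058, Tead3 at 0.14 and Wwc1 at -0.10, none of them called. That scaling moves all genes alike and put their median at 0.45, so these values are to be read against that median.

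A further 12 targets, from Lats2 to Tgfb2, gave no call in either direction and a median of -0.11. Igfbp3, which binds insulin-like growth factors, passed the p threshold only (-0.29, edgeR unadjusted p = 0.0148). It turned to 0.16 with the epithelial markers held level, beside a median of all genes at 0.45. Of the other CCN family members, Nov, Wisp1 and Wisp2 were tested with no call, and Wisp3 was too low to test. The epithelial genes Fgfr2, Gata3 and Cited1 were named as Yap/Taz targets next to Ctgf in the study. The paper itself showed Fgfr2 and Ctgf as reduced in these libraries. Whether the targets were picked from them was not given in the sources used here. Their direction in these libraries is therefore not taken as independent evidence, and the same holds for Ctgf. Apart from these libraries, the paper reported Ctgf, Fgfr2 and Gata3 as reduced by RT-PCR in additional transplants. It also reported them and Cited1 as lower in glands of pubertal Adamts18-/- mice. By antibody staining, the paper further reported a weaker nuclear Yap signal in myoepithelial cells without Adamts18. Fgfr2, an epithelial growth factor receptor, was called lower at -0.64 (edgeR unadjusted p = 0.00252), as were Gata3, the luminal transcription factor, at -0.50 (edgeR unadjusted p = 0.0384) and Cited1, a co-regulator in hormone-sensing cells, at -1.06 (edgeR unadjusted p = 4.45e-05). With the epithelial markers held level Cited1 alone was still called (-0.61, edgeR unadjusted p = 0.0407). Fgfr2 was then at -0.19 and Gata3 at -0.052, beside a median of all genes at 0.45. Of all genes, 0.184% were called lower in that scaling. These 3 were higher in mouse 3 than in mice 1 and 2 by 0.40 to 0.58 on the log2 scale against their mean. All 24 pan-epithelial markers were also higher in mouse 3 by that measure. Of the 10 Yap/Taz targets, 7 were lower in mouse 3 than in either other mouse.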

How the data were processed

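The authors deposited raw read counts per gene symbol for 6 libraries of single-end 85-base reads, with 0 columns of other samples. The submitters' processing notes name mm9, bcl2fastq 2.18, TopHat2 2.0.11, featureCounts 1.6.2 and edgeR, without roles. From these counts, edgeR 4.0.16 (R 4.3.3; TMM, filterByExpr) fitted genotype with the mouse as a block, as the study corrected for the mouse, and tested by quasi-likelihood over 17345 genes, with Benjamini-Hochberg adjustment. A call was a fold below 0.8 or above its reciprocal at unadjusted p below 0.05. Log2 ratios within mice used a prior count of 2. The mouse number in the labels pairs contralateral glands of a host, and deviations of paired glands correlated at 0.512, 0.505 and 0.639. P-values of the blocked fits measure the spread left after mouse and genotype, which here is that of 3 within-mouse differences. A floor of 3 counts equals 0.0430 to 0.0574 CPM.

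Alternatives were DESeq2 1.42.0, limma-voom (limma 3.58.1), other scalings, other filters, no block, no fold threshold and each mouse left out. One of the scalings held the summed counts of 24 pan-epithelial markers level between glands. Lengths and gene positions came from GENCODE M21 and promoters from RefSeq, both GRCm38. That build differs from mm9, so no coordinate was joined to the counts. The fit was tested on simulated data. All members were named. Of the pathway lists, called genes, Yap1, Wwtr1 and the study's own targets were named. Of the marker lists, sums and defining markers were given. For likeness, the 3 genes with the highest r to Ctgf, Cyr61 and Ankrd1 were named, except that 1 is not reported here. Igfbp3, Tead3, Fos and Egr1 were named after their values were seen. The members and lists were chosen with earlier results of these data known.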

Additional observations from a re-analysis of the deposited data

How the results depend on the processing

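Of 120 recomputed log2 fold changes of single members, 105 kept their direction and their side of the call. Without the replicate block for the mouse, 0 members were called lower instead of 1, since Ctgf was at -0.43 (edgeR unadjusted p = 0.415). Without a fold threshold 3 members were lower, with Ptpn14 and Arhgef17 added. With the epithelial markers held level 0 were called lower and 2 higher (Cyr61 and Ankrd1, beside 14.9% of all genes), and fitted values turned positive for Amotl2 (0.31), Axl (0.32), Crim1 (0.27), Ptpn14 (0.18), F3 (0.27), Nt5e (0.31) and Arhgef17 (0.20). That scaling moves every gene by the same amount, with the median of all genes at 0.45. Leaving out a mouse gave 0 to 1 members called higher. Without mouse 3 it was Cyr61 (0.87), and without mouse 2 Ankrd1 (0.99). Leaving out a mouse moved Amotl2 between -0.30 and 0.059 and Axl between -0.40 and 0.24, both positive without mouse 3. The count of members that differ between mice was 1, against 6 in DESeq2, 4 with the epithelial markers level, 4 without the filter and 0 to 0 when a mouse was left out, an alternative added after seeing the data that compares only 2 mice. Apart from these constructions the cause was not tested. Poisson counting error alone was 12.3% for Ankrd1 at its smallest count of 66, and at most 3.00% for the other members.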
